A study of Mus musculus with 31 samples.

Results

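The Gadd45 genes (Gadd45a, Gadd45b and Gadd45g) and the polo-like kinase genes Plk2 and Plk3 are messages of the cell stress and growth arrest response. They were followed across 4 groups of mouse bone-marrow macrophages on 2-colour spotted arrays. A gene's probes were those paired with exactly its symbol in the table of probes and genes. Of the 5 genes, 4 have a probe among the 13872 of the array, 1 each, where probes of 1 symbol name 10600 genes. Plk3 has no probe under its symbol and is not analysed here. Gadd45a, Gadd45b and Plk2 had enough values to be tested, and Gadd45g did not. The genes were chosen from earlier results of these arrays, in which the wild-type response of Gadd45b to LPS and the difference of Plk2 between the genotypes for LPS were known. Values of Gadd45b and Plk2 that use LPS arrays are therefore a description, given with an error and no p. Their values from the E. coli arrays alone, and all values of Gadd45a, are given with the adjusted p of a fit across all 7325 probes tested. That fit shares 1 estimate of a probe's spread over the 4 groups. LPS mice therefore enter the error behind the E. coli p, which are not fully free of the values that chose the genes.

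Macrophages were grown for 8 days, in medium containing L929-conditioned medium as a source of the growth factor CSF-1, from marrow of mice aged 6 to 8 weeks, either wild-type C57BL/6J or lacking MyD88 (MyD88-/-). MyD88 is the adaptor that most Toll-like receptors and the interleukin 1 receptor use. Wild-type LPS and MyD88-/- LPS cells received re-purified LPS, the outer-membrane lipid of Gram-negative bacteria, at 10 ng/mL for 2 hours. Cells of the groups called wild-type E. coli and, without the adaptor, MyD88-/- E. coli were given live bacteria at 1 bacterium per macrophage for 2 hours. All groups were compared on the array with mock cells of the same genotype given medium only. Each group holds 4 mice, measured on 31 arrays in all. Dyes were swapped for every mouse and stimulus and the pair was averaged, but MyD88-/- LPS mouse 4 was measured on 1 array, unswapped. The labels number the mice 1 to 4 in each group and do not say whether the same animals, or the same mock RNA, served both stimuli. Values are the authors' log2 ratios, read as stimulated over mock, the likely direction, though the labels leave it unstated. A log2 ratio of 1 is a 2-fold rise, and a ratio carries no level of the message.

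Gadd45 proteins are small acidic nuclear proteins that arise under DNA damage and other stress. They bind partners of the cell cycle and DNA repair machinery, such as PCNA, Cdk1 and the inhibitor p21, and they bind the kinase Map3k4, which stands upstream of p38 and JNK. Gadd45b is also known as an NF-kB target that restrains JNK through the kinase Map2k7, and its older name Myd118 comes from its early rise in differentiating myeloid cells. Plk2 and Plk3 are relatives of the mitotic kinase Plk1. Plk2 was found as a serum-inducible kinase gene (Snk) of the immediate early kind and acts in centriole duplication.

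The 250 bases before the start of each gene with a probe are printed because the genes are compared by how their messages respond, and their promoters differ in the elements listed. They come from RefSeq on build GRCm38.p6, where all 5 genes matched by symbol, and are written 5′ to 3′ on the gene's strand, with matches to the searched motifs in capitals. Gadd45b lies at chr10:80930091-80932204 and its window at chr10:80929841-80930090, on the plus strand. Gadd45g lies at chr13:51846675-51848475 with the window chr13:51846425-51846674, also plus. Gadd45a lies at chr6:67035096-67037407 on the minus strand, with the window chr6:67037408-67037657. Plk2 lies at chr13:110395044-110400844 on the plus strand, with the window chr13:110394794-110395043.
Gadd45b: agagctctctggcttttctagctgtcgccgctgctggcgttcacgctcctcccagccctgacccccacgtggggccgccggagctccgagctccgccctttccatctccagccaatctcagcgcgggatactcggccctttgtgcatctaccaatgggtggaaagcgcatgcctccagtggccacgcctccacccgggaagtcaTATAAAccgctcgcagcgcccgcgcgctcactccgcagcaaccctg
Gadd45g: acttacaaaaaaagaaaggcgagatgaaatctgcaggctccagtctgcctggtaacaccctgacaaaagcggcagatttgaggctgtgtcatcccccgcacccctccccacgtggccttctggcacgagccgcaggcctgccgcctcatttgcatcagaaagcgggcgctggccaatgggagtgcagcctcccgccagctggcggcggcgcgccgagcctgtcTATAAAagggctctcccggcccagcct
Gadd45a: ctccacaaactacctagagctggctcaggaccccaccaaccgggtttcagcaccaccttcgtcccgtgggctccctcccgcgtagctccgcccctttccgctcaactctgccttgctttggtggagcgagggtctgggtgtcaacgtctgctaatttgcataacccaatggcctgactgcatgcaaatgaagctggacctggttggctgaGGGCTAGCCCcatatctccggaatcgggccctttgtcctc
Plk2: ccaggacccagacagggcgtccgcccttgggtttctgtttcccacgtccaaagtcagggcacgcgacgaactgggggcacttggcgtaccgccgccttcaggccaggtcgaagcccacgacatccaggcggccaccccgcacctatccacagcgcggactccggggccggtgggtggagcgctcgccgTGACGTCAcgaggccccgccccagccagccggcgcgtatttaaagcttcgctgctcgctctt
The capitals mark a TATA box (TATAAA) in Gadd45b, with its first base 46 bases before the start, and in Gadd45g, 27 bases before it. They mark the cAMP response element TGACGTCA in Plk2, 62 bases before the start, and the p53 consensus decamer in Gadd45a, 40 bases before it. Of 32851 promoters in the table, windows of the same length held TATAAA in 12.4%, TGACGTCA in 1.55% and the p53 decamer in 7.13%. The search covered both strands, and no matches overlapped. The AP-1 motif TGANTCA (6.75% of promoters), the kB consensus (3.9%) and the serum response CArG box (1.47%) had no match in the windows of the 5 genes, and the window of Plk3 held none of the 6 motifs. The GC content was 65.2% in Gadd45b, 62% in Gadd45g, 59.2% in Gadd45a and 68.4% in Plk2, against a median of 52.4% over all promoters. A match is a run of letters and no evidence of binding.

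An array carried between 5564 and 10497 values, and array medians lay between -0.122 and 0.0794. No value of the Gadd45 genes or Plk2 was at the floor of -6.64, which held 4333 of 265421 values and was treated as missing. The 15 dye pairs correlated at r of 0.256 to 0.71 across probes, a description over probes that share the 2 RNA samples. The lowest r of any 2 arrays was 0.12, so the r of the pairs show only that their ratios share a direction. Over all probes tested, the standard error of a group's log2 ratio, from values of 3 or 4 mice, had a median of 0.202 to 0.205. Among markers of macrophages 9 of 10 have values. Of the 7 tested, 1 rose and 2 fell for wild-type LPS, where 7.99% of all probes were called higher and 9.04% lower. For MyD88-/- LPS 1 rose and 1 fell (5.28% and 4.7% of all probes), and likewise for wild-type E. coli (9.43% and 11.8%). For MyD88-/- E. coli 1 rose and none fell (6.35% and 4.42%). Of the other marker lists, 3 B cell, 3 neutrophil, 1 T cell, 1 dendritic cell and 1 erythroid marker were tested. Of these, 1 B cell marker fell for MyD88-/- LPS and the 1 dendritic cell marker rose for wild-type LPS. All these marker counts are too small to be read against the shares. No tested marker of macrophages or of these other cells was called in a difference between genotypes or stimuli. With 1 to 3 markers tested per list outside macrophages, this says little of those cell types. Of stromal markers none had enough values. A ratio to mock cells cannot check the cell type by level, nor the deletion of Myd88. In such bulk RNA, fewer cells of a type and less RNA per cell cannot be told apart.

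Gadd45b rose in every group, also without MyD88, and with E. coli all wild-type mice lay above all MyD88-/- mice, a difference that narrowly missed the threshold of the fit. In wild-type LPS mice 1 to 4 its log2 ratio was 3.40, 3.49, 4.00 and 3.21. In MyD88-/- LPS mice 1 to 3 it was 2.28, 3.47 and 3.25, and mouse 4 had no value. Wild-type mice given E. coli had 4.10, 5.24, 3.69 and 4.32. The E. coli values of MyD88-/- mice were 1.97, 2.97, 2.79 and 3.04. All 30 arrays with a value were above 0, the LPS values of the genotypes overlap, and the E. coli values do not, with a gap of 0.65 between the lowest wild-type and the highest MyD88-/- mouse. The share of all probes whose mice part in this way is not given, so gaps here and below are a description.

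The mean log2 ratio of Gadd45b was 4.34 ± 0.66 (SD, n = 4 mice, 20.2-fold) for wild-type E. coli. It was 3.53 ± 0.34 (SD, n = 4, 11.5-fold) for wild-type LPS. For MyD88-/- LPS it was 3.00 ± 0.63 (SD, n = 3, 8.00-fold), and for MyD88-/- E. coli 2.69 ± 0.49 (SD, n = 4, 6.47-fold). That is also the order of the groups, and the mouse values of each neighbouring pair in it overlap. Among the 7325 probes tested Gadd45b stood at rank 27 of the largest rises for wild-type LPS, 33 for MyD88-/- LPS, 29 for wild-type E. coli and 58 for MyD88-/- E. coli. By limma the E. coli rises had an adjusted p = 2e-08 in wild-type and 4.53e-06 in MyD88-/- cells.

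**Figure D1:**
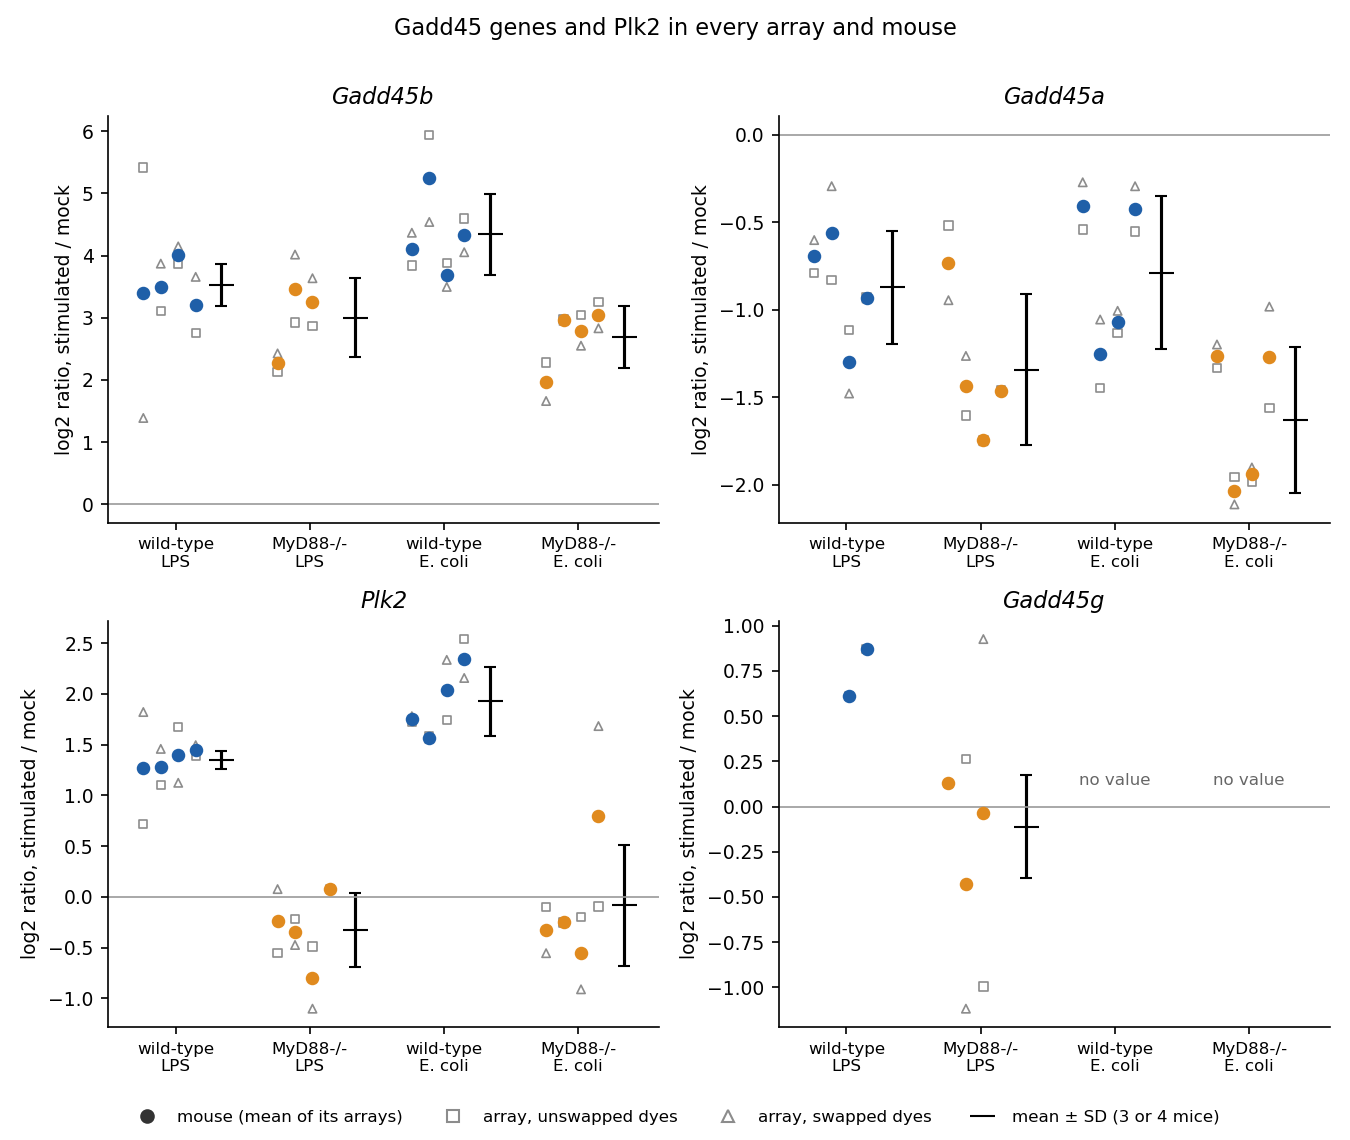
Log2 ratio of stimulated over mock cells (y axis) in the 4 groups (x axis), with 1 panel per gene. Filled points are mice (blue wild-type, orange MyD88-/-), open squares and triangles are arrays of unswapped and swapped dyes, and bars are the mean ± SD of 3 or 4 mice. Gadd45b lies above 0 and Gadd45a below 0 in every mouse, while Plk2 lies between 1.27 and 2.35 in wild-type mice and between -0.80 and 0.79 in MyD88-/- mice.

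The genotype difference of Gadd45b for E. coli, MyD88-/- minus wild-type, was -1.65 ± 0.36 (SE, 95% interval -2.41 to -0.88), a 3.13-fold smaller rise. By limma its adjusted p = 0.0527, just past the threshold of 0.05, so it was not called. It was called at 0.0384 with a dye term and the array pair as a random block, at 0.0385 without MyD88-/- LPS mouse 1 and at 0.0369 without wild-type E. coli mouse 3. The random block fit takes arrays as units, with a correlation of 0.118 within pairs. Arrays of a mouse then count almost as separate replicates, so its p do not measure the spread between mice alone. The difference was -1.68 on unswapped (adjusted p = 0.279) and -1.61 on swapped arrays (adjusted p = 0.241), called in neither. In 24 of 27 alternatives it stayed uncalled. For LPS the genotypes differed by -0.52 ± 0.39 (SE), and the sign turned to 0.0255 with each array scaled and to 0.0934 on swapped arrays alone. The rise with E. coli minus that with LPS was 0.81 ± 0.36 (SE) in wild-type and -0.31 ± 0.39 in MyD88-/- cells, and the interaction of genotype and stimulus was -1.12 ± 0.53. The dye pair of wild-type LPS mouse 1 was far apart, at 5.41 on the unswapped and 1.39 on the swapped array. Without that swapped array, an alternative chosen after seeing the data, the wild-type LPS mean of Gadd45b was 4.03 in place of 3.53 and the LPS genotype difference -1.03 in place of -0.52. The wild-type stimulus difference was then 0.31 in place of 0.81, the interaction -0.62 in place of -1.12, and the adjusted p of the E. coli genotype difference 0.16.

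Gadd45a, the member of the family known best as a p53 target, moved the other way and fell in all 4 groups. Its log2 ratios for wild-type LPS mice 1 to 4 were -0.70, -0.56, -1.30 and -0.93. MyD88-/- mice given LPS had -0.73, -1.43, -1.75 and -1.46. Wild-type mice given E. coli had -0.41, -1.25, -1.07 and -0.42. The values of MyD88-/- mice given E. coli were -1.27, -2.04, -1.94 and -1.27. All 31 arrays were below 0. The genotypes overlap for LPS, and for E. coli they are parted by a gap of 0.0148, far under the spread within either group.

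In wild-type cells the mean of Gadd45a was -0.87 ± 0.32 (SD, n = 4 mice) for LPS, which is 0.547 of the mock level, with a limma adjusted p = 0.00651. For E. coli it was -0.79 ± 0.44 (SD, n = 4), 0.579 of mock, with an adjusted p = 0.0101. This wild-type E. coli call ended on swapped arrays alone (-0.66, adjusted p = 0.0673), in a fit of that group alone (0.058), and without wild-type E. coli mouse 2 (0.0675) or mouse 3 (0.0549). In MyD88-/- cells the mean was -1.34 ± 0.43 (SD, n = 4) for LPS, 0.394 of mock, with an adjusted p = 0.00027. It was -1.63 ± 0.42 (SD, n = 4) for E. coli, 0.323 of mock, with an adjusted p = 4.1e-05. Among the 7325 probes Gadd45a stood at rank 37 of the largest falls for MyD88-/- E. coli and 78 for MyD88-/- LPS. It stood at rank 279 for wild-type LPS and 444 for wild-type E. coli.

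The order of the groups for Gadd45a runs from wild-type E. coli through wild-type LPS and MyD88-/- LPS to MyD88-/- E. coli, and the mouse values of each neighbouring pair overlap. The genotype differences were not called by limma. The one for LPS was -0.47 ± 0.28 (SE, 95% interval -1.07 to 0.13, adjusted p = 0.668), and the one for E. coli was -0.84 ± 0.28 (95% interval -1.44 to -0.24, adjusted p = 0.194). The E. coli difference was called, at 0.0307, with the dye term and random block, which takes arrays and not mice as units. The stimuli differed by 0.08 ± 0.28 (SE, 95% interval -0.52 to 0.68, adjusted p = 0.999) in wild-type cells and by -0.28 ± 0.28 (-0.88 to 0.31, adjusted p = 1) in MyD88-/- cells. The interaction was -0.37 ± 0.40 (SE, 95% interval -1.22 to 0.48, adjusted p = 1).

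Gadd45g, the third gene of the family, had values on 7 of the 31 arrays and was not tested. Wild-type LPS mice 3 and 4 had 0.61 and 0.87, from 1 array each. MyD88-/- LPS mice 1 to 3 had 0.13, -0.43 and -0.03. In mice 2 and 3 the dye pairs have opposite signs, -1.12 and 0.93 on the swapped arrays against 0.26 and -0.995 on the unswapped arrays. No E. coli array had a value. These values set no direction for Gadd45g.

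Plk2 rose in every wild-type mouse and its mean in MyD88-/- cells lay between -0.33 and -0.08, with mice on both sides of 0 for either stimulus. In wild-type LPS mice 1 to 4 the log2 ratio was 1.27, 1.28, 1.40 and 1.44. In MyD88-/- LPS mice it was -0.24, -0.34, -0.80 and 0.08. For E. coli, wild-type mice had 1.75, 1.57, 2.04 and 2.35. The MyD88-/- mice given E. coli had -0.33, -0.25, -0.56 and 0.79. The genotypes do not overlap for either stimulus, with a gap of 1.19 for LPS and 0.775 for E. coli. All 8 wild-type arrays of each stimulus were above 0, against 2 of 7 for MyD88-/- LPS and 1 of 8 for MyD88-/- E. coli.

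The mean of Plk2 was 1.93 ± 0.34 (SD, n = 4 mice, 3.80-fold) for wild-type E. coli, and this rise had a limma adjusted p = 3.58e-06. For MyD88-/- E. coli it was -0.08 ± 0.60 (SD, n = 4), with a 95% interval of -0.50 to 0.33 and an adjusted p = 0.862. The difference for E. coli, MyD88-/- minus wild-type, was -2.01 ± 0.27 (SE, 95% interval -2.59 to -1.43, adjusted p = 0.00108), a ratio 4.03-fold lower without MyD88, and rank 41 of the largest negative differences. It was -2.06 (adjusted p = 0.000463) on unswapped arrays and -1.96 (adjusted p = 0.0571, not called) on swapped arrays. MyD88-/- E. coli mouse 4, the highest of its group, had 1.68 on its swapped and -0.10 on its unswapped array. Without that swapped array, an alternative chosen after seeing the data, the MyD88-/- E. coli mean was -0.31 (adjusted p = 0.222) and the genotype difference -2.23 (adjusted p = 2.12e-05).

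For LPS the mean of Plk2 was 1.35 ± 0.0858 (SD, n = 4 mice, 2.55-fold) in wild-type cells, the smallest spread of any group of the 3 genes tested. In MyD88-/- cells it was -0.33 ± 0.36 (SD, n = 4). The difference was -1.67 ± 0.27 (SE), a ratio 3.19-fold lower without MyD88, and it is one of the values that chose the gene. The small wild-type spread is one of dye-pair means, and the pair of wild-type LPS mouse 1 was apart, at 1.82 swapped and 0.72 unswapped. Without that swapped array, an alternative chosen after seeing the data, the wild-type LPS mean was 1.21 and the difference -1.54 ± 0.29 (SE). From high to low, the groups run wild-type E. coli, wild-type LPS, MyD88-/- E. coli and MyD88-/- LPS. The wild-type stimuli do not overlap, with a gap of 0.125 between the highest LPS and the lowest E. coli mouse, and the MyD88-/- stimuli do. The rise with E. coli exceeded that with LPS by 0.58 ± 0.27 (SE) in wild-type cells, and in MyD88-/- cells the stimuli differed by 0.24 ± 0.27. The interaction was -0.34 ± 0.39 (SE).

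**Figure D2:**
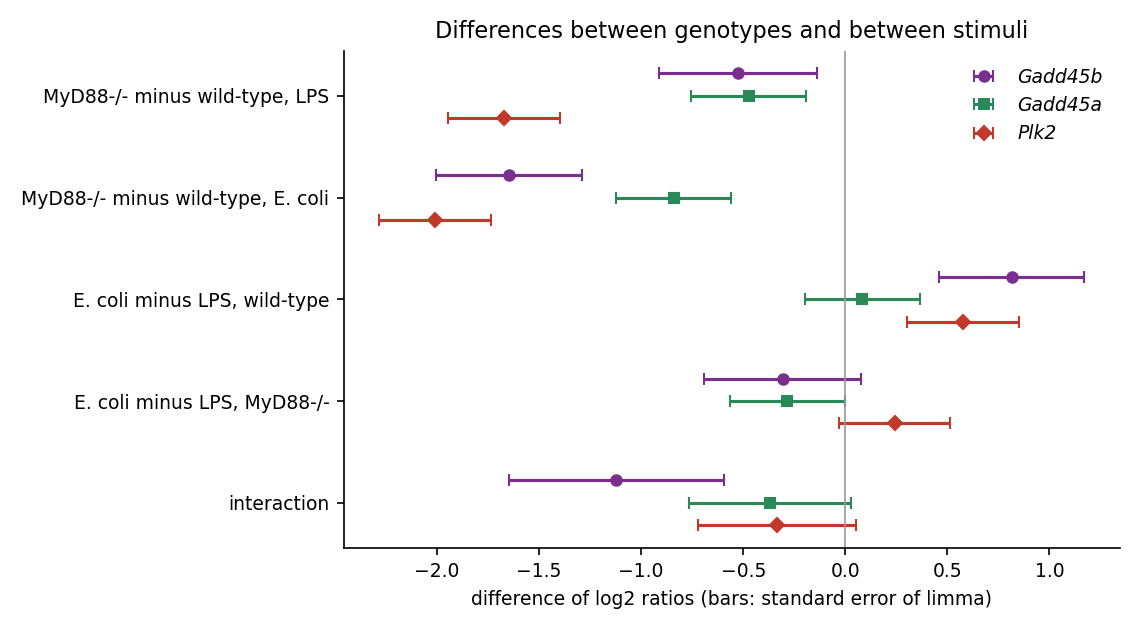
Differences of log2 ratios (x axis) for the 5 comparisons between groups (y axis), with bars of 1 standard error of the limma fit. Plk2 lies farthest below 0 in both genotype differences, at -1.67 and -2.01, and Gadd45b is at -0.52 for LPS and -1.65 for E. coli.

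The counts of calls set the 3 genes against the array as a whole. For wild-type LPS the fit called 2 of the 3 higher and 1 lower, where 7.99% of probes were called higher and 9.04% lower. For MyD88-/- LPS it called 1 higher and 1 lower, against 5.28% and 4.7%. Because LPS values of Gadd45b and Plk2 chose the genes, nothing is read from these LPS counts beyond the fall of Gadd45a. For wild-type E. coli 2 rose (Gadd45b and Plk2) and 1 fell (Gadd45a), against 9.43% of probes called higher and 11.8% lower. For MyD88-/- E. coli 1 rose (Gadd45b) and 1 fell (Gadd45a), against 6.35% and 4.42%. Of the 3 genes, 1 (Plk2) was lower in MyD88-/- cells in the E. coli genotype difference, where 0.546% of all probes (40 of 7325) were called lower. In the LPS genotype difference the fit also called 1 lower (Plk2), against 0.218% of probes, and nothing is read from it. No probe of the 7325 was called by limma for the stimulus difference in wild-type cells, in MyD88-/- cells or for the interaction (0% each), and at an unadjusted p under 0.05 there were 297, 177 and 219.

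**Figure D3:**
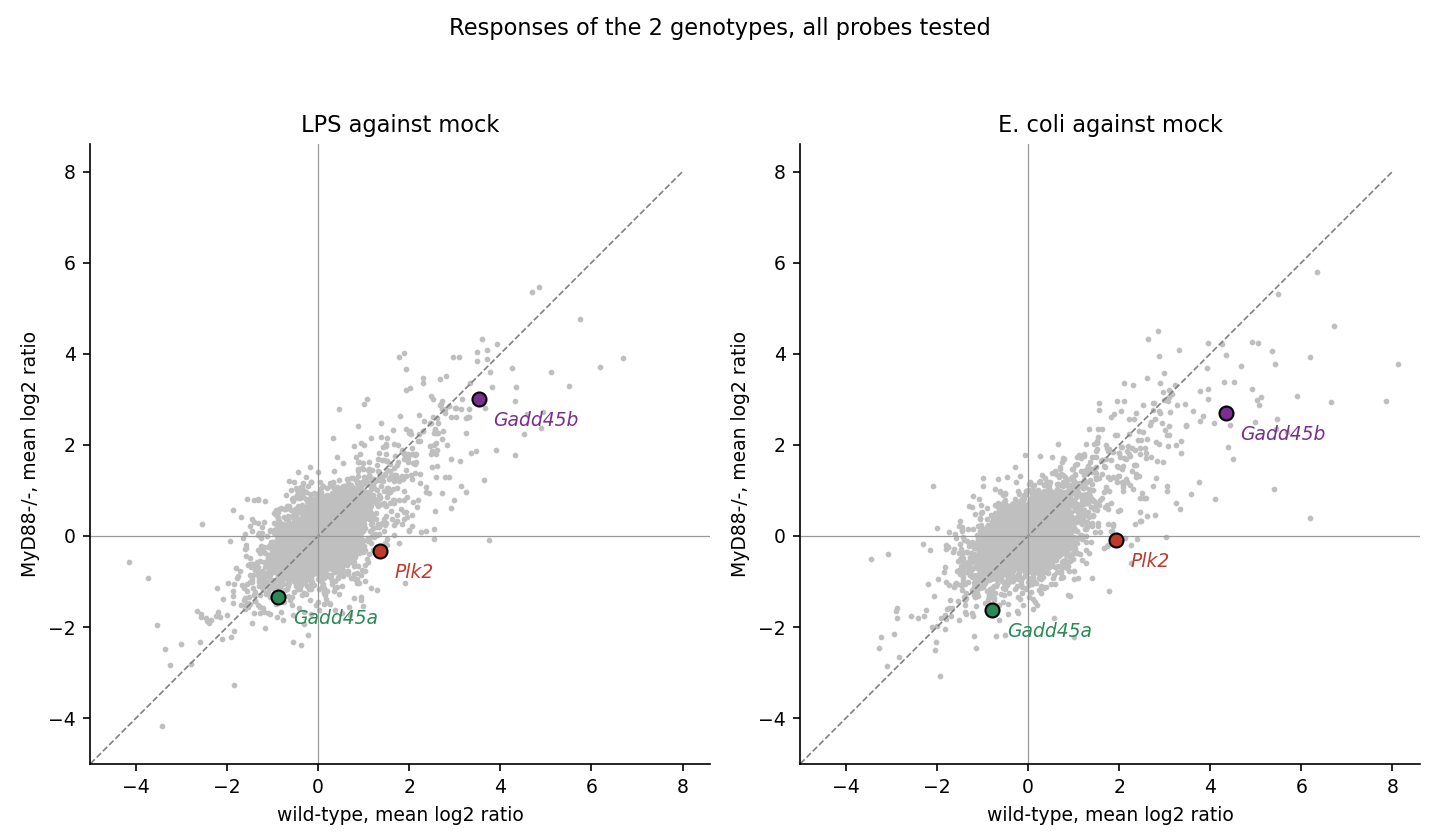
Mean log2 ratio in MyD88-/- cells (y axis) against wild-type cells (x axis) for all 7325 probes tested (grey), for LPS on the left and E. coli on the right, with the line of equal response dashed. Gadd45b lies high on both axes and below the line, Gadd45a low on both, and Plk2 to the right at about 0 on the y axis (-0.33 for LPS and -0.08 for E. coli).

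The genes whose mouse values lay nearest to those of Gadd45b, by the root mean square difference of log2 ratios over 15 mice and among 5914 probes, were Csf1, Atp5o, Jak2, Cav1 and Egr2. Csf1, the macrophage growth factor, was nearest at 0.563, with means of 3.50 for wild-type LPS, 3.84 for MyD88-/- LPS, 4.30 for wild-type E. coli and 3.38 for MyD88-/- E. coli. The ATP synthase subunit gene Atp5o was at 0.574. Jak2, a kinase of cytokine receptors, was at 0.629, with group means of 3.32, 2.78, 3.85 and 2.64 in the same order. Cav1, the coat protein of caveolae, was at 0.653, and the zinc finger transcription factor Egr2 at 0.709. Csf1 differs from Gadd45b in that its mean for LPS was higher in MyD88-/- than in wild-type cells.

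For Plk2 the nearest genes among 6038 probes were Epop (0.601), Coq10b (0.633), Ppp1r15a (0.641), Eef1e1 (0.645) and Ptpn11 (0.656), over 15 mice for Ppp1r15a and 16 for the others. All 5 had higher means in wild-type than in MyD88-/- cells with both stimuli, a pattern that nearness to Plk2 selects. Epop, a partner of Elongin and a Polycomb complex, had group means of 0.80 for wild-type LPS, -0.36 for MyD88-/- LPS, 1.28 for wild-type E. coli and -0.13 for MyD88-/- E. coli. Coq10b, a coenzyme Q binding protein, had 1.07, -0.50, 1.14 and -0.40. The same 5 genes were nearest to each of Gadd45b and Plk2 with every array centred on its median.

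**Figure D4:**
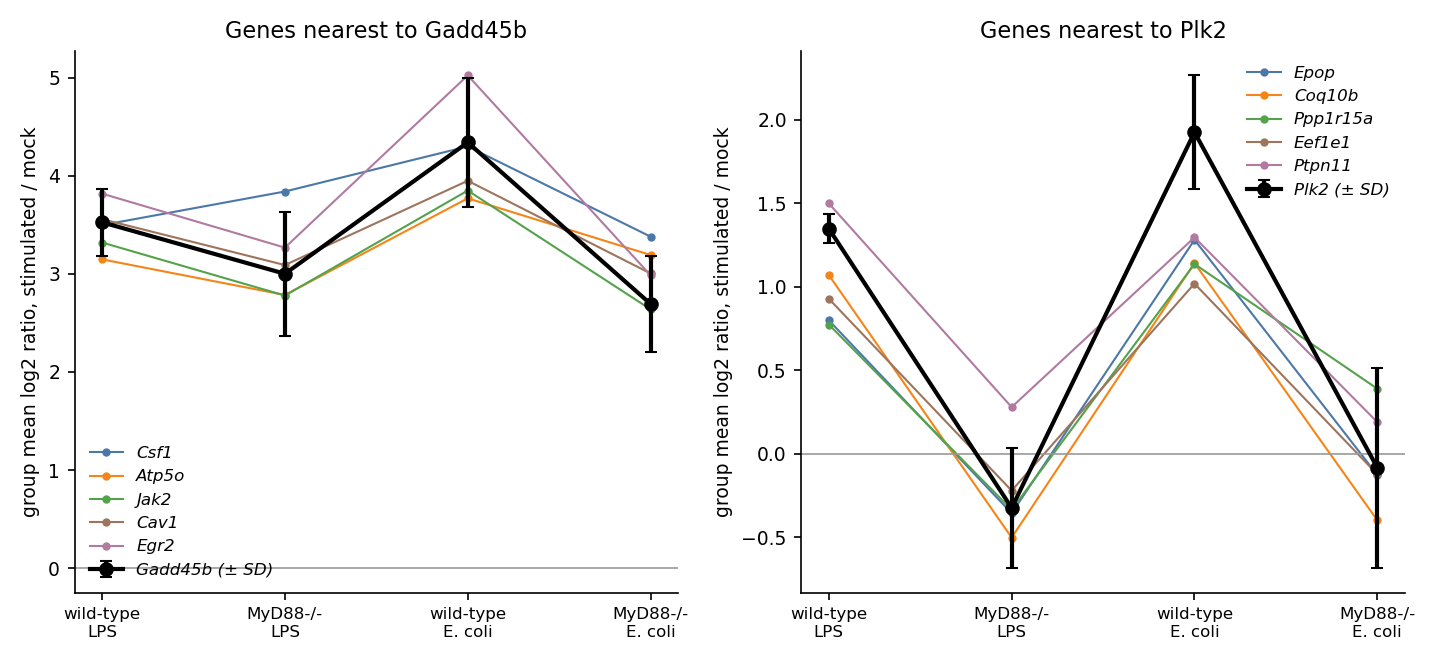
Group mean log2 ratio (y axis) of Gadd45b (left) and Plk2 (right), in black with bars of ± SD, and of the 5 genes nearest to each (colours), in the 4 groups (x axis). Egr2 rises above Gadd45b for wild-type E. coli, at 5.02 against 4.34, and for Plk2 all 5 neighbours lie below its 1.93 there.

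Ppp1r15a, also known as Gadd34, shares the growth arrest and DNA damage name without being a relative, and directs a phosphatase to the translation factor eIF2alpha. It rose for wild-type LPS (0.77, limma adjusted p = 0.0112) and wild-type E. coli (1.14, adjusted p = 0.000605). For MyD88-/- LPS it was -0.34 (adjusted p = 0.415) and for MyD88-/- E. coli 0.39 (adjusted p = 0.249). The genotype differences, -1.11 for LPS (adjusted p = 0.183) and -0.75 for E. coli (adjusted p = 0.238), were not called, so a dependence on genotype was not shown for it. Nearness to Plk2 over the same mice selected Ppp1r15a, so its pattern and these p add no support.

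Genes of the p53 and DNA damage response, in which Gadd45a and Plk2 are usually placed, include large rises. Of 30 listed, 25 are on the array and 16 were tested. For wild-type LPS 4 rose and 2 fell, where 7.99% of all probes rose and 9.04% fell, and the list median was -0.24 against -0.048 over all probes. For wild-type E. coli the counts were also 4 and 2 (9.43% and 11.8% of all probes), with a median of -0.42. For MyD88-/- LPS 2 rose and none fell (5.28% and 4.7% of all probes, median 0.06), and for MyD88-/- E. coli 3 rose and 1 fell (6.35% and 4.42%, median 0.04). The falls are near the share over all probes. The largest changes of wild-type E. coli were those of the death receptor Fas (3.22, adjusted p = 0.000341), the antiproliferative gene Btg2 (2.60, adjusted p = 0.000267), the kinase inhibitor Cdkn1a (2.33, adjusted p = 3.75e-07) and the p53 ligase Mdm2 (0.68, adjusted p = 0.0195).

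Cdkn1a encodes p21, a binding partner of Gadd45 proteins and it rose with and without MyD88. Its probe with most values gave 2.03 ± 0.19 (SE, adjusted p = 2.14e-06) for wild-type LPS and 2.25 ± 0.19 (adjusted p = 1.12e-06) for MyD88-/- LPS. For MyD88-/- E. coli it gave 2.58 ± 0.19 (adjusted p = 2.66e-07). A second probe of Cdkn1a disagrees in size, with 0.22, 0.50, 0.67 and 0.39 in the 4 groups from wild-type LPS to MyD88-/- E. coli. Btg2 had 2.06 for wild-type LPS and 0.47 for MyD88-/- LPS, and 0.84 for MyD88-/- E. coli. Its genotype differences of -1.59 (adjusted p = 0.422) and -1.76 (adjusted p = 0.185) were close in size to that of Gadd45b for E. coli and were not called.

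The list of the integrated and other stress responses held 23 genes, 19 on the array and 13 tested, and its genes moved in both directions. For wild-type LPS 5 rose and 4 fell, against 7.99% and 9.04% of all probes. For MyD88-/- LPS the counts were 4 and 3 (5.28% and 4.7% of all probes), for wild-type E. coli 7 and 3 (9.43% and 11.8%), and for MyD88-/- E. coli 5 and 3 (6.35% and 4.42%). The list medians were 0.28, 0.28, 0.39 and 0.45 in that order. Ddit3 (Gadd153 or CHOP), a transcription factor of the unfolded protein response that also bears a growth arrest name, fell in all 4 groups, with log2 ratios of -2.01, -1.73, -1.83 and -1.72. For wild-type E. coli its adjusted p = 1.42e-06. The other large changes of that group were those of the transcription factor Cebpb (1.42, adjusted p = 0.0204), the stress protein Nupr1 (1.20, adjusted p = 0.000311) and the antiproliferative Btg1 (1.19, adjusted p = 2.04e-05).

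Of 22 genes of the p38 and JNK cascade, downstream of Gadd45 binding, 20 are on the array and 15 were tested. In wild-type cells 3 rose and 1 fell with either stimulus, where 7.99% of all probes rose and 9.04% fell with LPS, and 9.43% and 11.8% with E. coli. In MyD88-/- cells 2 rose with LPS (5.28% of all probes) and 3 with E. coli (6.35%), and none fell, where 4.7% and 4.42% of all probes did. The falls are near the share over all probes. List medians were 0.17, 0.22, -0.07 and 0.23 from wild-type LPS to MyD88-/- E. coli. Map3k4, the kinase that Gadd45 proteins bind and activate, fell in wild-type cells, to -1.04 (adjusted p = 0.024) with LPS and -0.86 (adjusted p = 0.0486) with E. coli. In MyD88-/- cells it was at -0.14 (adjusted p = 0.859) and 0.20 (adjusted p = 0.795), and its genotype differences of 0.90 and 1.06 were not called (adjusted p = 0.59 and 0.31). The p38 substrate kinase Mapkapk2 rose in all 4 groups, by 1.38, 1.10, 1.03 and 1.34, as did the adaptor Tab2, by 0.90, 0.62, 0.84 and 0.97. The p38 family kinase Mapk12 rose in wild-type cells, by 0.52 with LPS and 0.76 with E. coli. Map2k7 was not analysed here.

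The last of the 4 lists holds cell cycle partners and other polo-like kinases. Of 19 listed, 17 are on the array and 14 were tested. None rose and 4 fell for wild-type LPS, against 7.99% and 9.04% of all probes, and 1 rose and 2 fell for MyD88-/- LPS (5.28% and 4.7%). None rose and 3 fell for wild-type E. coli (9.43% and 11.8% of all probes), and 1 rose and 2 fell for MyD88-/- E. coli (6.35% and 4.42%). Counts of 1 or 2 among 14 genes are too small to be read against these shares. The medians were -0.23, -0.04, -0.15 and -0.26. The riser in both MyD88-/- groups was the cyclin D kinase Cdk6, at 1.26 (adjusted p = 0.0221) with LPS and 1.11 (adjusted p = 0.0419) with E. coli. Cyclin D1 (Ccnd1) fell in all 4 groups, to -1.05, -1.04, -1.13 and -1.06, and its partner kinase Cdk4 to -0.64, -0.76, -0.74 and -0.67. The phosphatase Cdc25b fell in wild-type cells, to -1.17 with LPS and -0.91 with E. coli. Pcna, the clamp of DNA replication, was at -0.15, -0.02, -0.03 and -0.11, the mitotic kinase Cdk1 at 0.00, 0.03, -0.10 and -0.12, and Plk4, the centriole kinase related to Plk2, at -0.03, 0.33, 0.11 and -0.01, none of them called. No gene of the 4 lists was called in a difference between genotypes or stimuli or in the interaction.

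**Figure D5:**
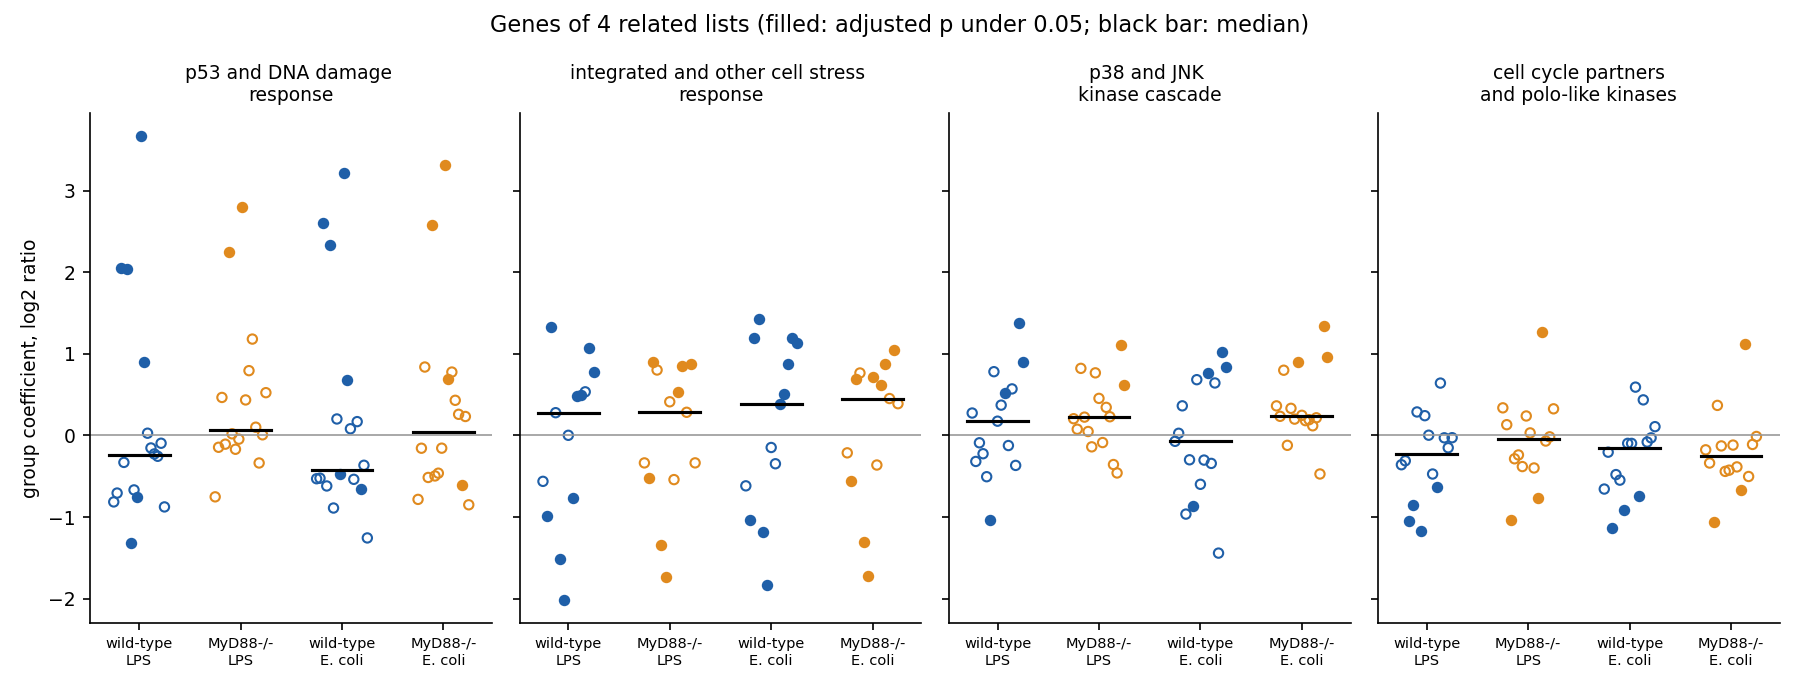
Group log2 ratio (y axis) of each tested gene of the 4 lists (panels) in the 4 groups (x axis), blue for wild-type and orange for MyD88-/- cells, filled where the adjusted p was under 0.05, with the list median as a black bar. The genes above 2 are Fas, Cdkn1a and Btg2 of the p53 list, and the lowest is Ddit3 at -2.01.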

How the data were processed

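The authors quantified the slides with GenePix Pro 3.0 and used the BASE and GeneSpring software for analysis, per the labels' protocols. What they deposited is a log2 ratio per probe and array, already normalized by the authors, and its background correction, normalization and spot filter are not given in the sources used here. Values at log2(0.01) were treated as missing, dye pairs were averaged per mouse, and probes with a value in at least 3 mice of every group were tested (7325 of 13872, 0 columns unmapped). Limma 3.58.1 (R 4.3.3) fitted 1 coefficient for each group with 2.97 prior degrees of freedom, p were 2-sided and adjusted by Benjamini and Hochberg over all probes tested, and a call is an adjusted p under 0.05. The p measure the spread between mice as the labels number them, except in the alternative with a random block, where arrays are the units.

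Of the probes, 11480 had 1 symbol, 50 several and 2342 none. Members and gene lists were chosen with earlier results of these data known. Named are the members, the 5 nearest genes of Gadd45b and Plk2 with at least 14 shared mice, and per list the 4 largest called changes of wild-type E. coli plus known partners (Cdk6 was added after its values were seen). A gene with several probes is given by the one with most values. Alternatives were centring or scaling, the floor, dye orientation, a dye term with a random block, the filter, the prior, the samples fitted, the mouse as a block and leaving out each mouse. Plots used matplotlib 3.10.9 (python 3.11.15).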

Additional observations from a re-analysis of the deposited data

Results flagged for a closer look

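The genotypes differed in the response of Plk2 to E. coli by the limma contrast of the difference itself. The ratio was lower in MyD88-/- than in wild-type cells by -2.01 ± 0.27 (SE, 4 mice of each genotype, adjusted p = 0.00108). That 4 of 4 wild-type mice lay above all 4 MyD88-/- mice is a description, given without the share of all probes that part this way. The difference for LPS, -1.67 ± 0.27 (SE), helped to choose the gene, so it is listed as a description and adds no support. No sample of Gadd45a, Gadd45b or Plk2 stood apart from its group by the gap test for groups of 4 mice. Gadd45b in MyD88-/- LPS, with values in 3 mice, is not such a group. With 4 mice the test can miss a sample that is apart, and Plk2 in MyD88-/- E. coli mouse 4 had 1.68 and -0.10 on its arrays.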

How the results depend on the processing

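Of 753 values of the 3 genes under alternatives, 733 kept their direction and side of the threshold, 6 lost a call, 4 gained one and 10, none of them called, turned sign. Leaving out a mouse of a group outside a comparison cannot move its estimate, so the direction there was fixed in advance. The 753 values also hold LPS values that chose the genes, so 733 is no measure of robustness. With values required in all 4 mice Gadd45b was left out of the test, since MyD88-/- LPS mouse 4 has none, so the members called fell from 2 to 1 in both MyD88-/- responses and from 3 to 2 in both wild-type responses. On swapped arrays alone the members called fell from 1 to 0 in both genotype differences. The counts of the LPS comparisons rest in part on Gadd45b and Plk2 values that chose the genes, so they add no support. In the E. coli genotype difference the count was 3 with the dye term and random block, where arrays are the units. It was 1 to 2 when each mouse was left out (2 without MyD88-/- LPS mouse 1 or wild-type E. coli mouse 3). The sign turned for Plk2 in MyD88-/- E. coli (leave-one-out range -0.38 to 0.0730, the last without MyD88-/- E. coli mouse 3), for Gadd45b in the LPS genotype difference (0.0255 scaled, 0.0934 swapped only), for Gadd45a between stimuli in wild-type cells (-0.0037 unswapped only, leave-one-out range -0.0586 to 0.24), for Gadd45b between stimuli in MyD88-/- cells (0.25 unswapped only), for Plk2 there (range -0.0513 to 0.40) and for the interaction of Plk2 (0.0103 swapped only). The cause was not tested. With the mouse number as a replicate block 0 members were called between stimuli or in the interaction, and Gadd45b differed by 0.81 between stimuli in wild-type cells. Same-numbered samples deviated together at r of -0.0568 to 0.142, with 2 of 8 best matched to their own number, so the numbers are not taken as pairs. Probes called ranged over alternatives from 653 to 1508 for wild-type LPS (1247 as reported), 301 to 978 for MyD88-/- LPS (731), 848 to 1842 for wild-type E. coli (1554), 436 to 1038 for MyD88-/- E. coli (789), 12 to 42 for the LPS genotype difference (21), 24 to 189 for the E. coli one (55) and 0 to 1 between stimuli in wild-type cells (0).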
